A study of Mus musculus with 32 samples.

Results

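The genes described here are 10 commonly used markers of macrophages: Adgre1, Cd68, Cd14, Csf1r, Itgam, Mpeg1, Lyz2, Gpnmb, Mrc1 and Cd163. Their probes were chosen by name alone, as every probe whose identifier the mouse gene table assigns to one of these symbols. No measured value entered that choice of probes, but the genes themselves were chosen with earlier results of these data known. Of the 10 genes, 9 had a probe named in this way and Cd68 had none, so no value is given for it. The 9 genes had 15 probes, out of 39429 probes and 20659 named genes on the array. Csf1r and Itgam had 3 probes each, Adgre1 and Mpeg1 had 2 each, and Cd14, Lyz2, Gpnmb, Mrc1 and Cd163 had 1 each. Where a gene had several probes, the brightest over all arrays stands for the gene. Other probes are given beside it in some comparisons and not in all.

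The study put total RNA from 32 samples of C57Bl/6 mouse origin, all labelled preadipocytes, on one-colour Agilent arrays, 4 arrays to a group. From mice there were 4 groups: Pparg knockout in the cold, Pparg control in the cold, Pparg knockout at room temperature, and Pparg control at room temperature. From culture, all at room temperature per the labels, there were Pparg knockdown cells with their Pparg control and Gyk knockdown cells with their Gyk control. Pparg encodes the nuclear receptor that drives fat cell formation, and Gyk, called Gk in the gene table, encodes glycerol kinase. The labels used here give neither the tool that removed either gene, nor the cell type in which the knockout acted, nor the temperature and length of the cold exposure, and they give no age. They also do not say whether the arrays of a group came from separate animals or cultures, and a p-value here reflects variation among the 4 arrays of a group, part or all of which may be technical.

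Levels are log2 intensities relative to the 75th percentile of the same array, so a level of 0 is the 75th percentile and a difference of 1 is a doubling of signal. That percentile lay between 141.3 and 806.3 intensity units, and 45.6% to 60.3% of probes were called well above background by the scanner software. Gyk knockdown arrays 3 and 4 had the lowest percentiles, 141.3 and 245.5, and dim probes sit higher on this scale there. Each experiment occupied a pair of slides scanned on 1 day, and each slide held arrays of both its groups. Adipocyte markers were well above background in all 8 groups, 7 or 8 of 8 genes in each. The targeted gene was lower in the knockdowns: Pparg averaged 4.24 in Pparg knockdown cells against 6.15 in control cells (log2 difference -1.91, limma adjusted p = 8.85e-06), and Gk -2.05 in Gyk knockdown cells against 0.35 in control cells (-2.40, adjusted p = 0.0118). In the mice Pparg went against the labels. Its 1 probe averaged 7.96 on the arrays labelled knockout and 5.84 on the control arrays in the cold (2.13, adjusted p = 0.000401), and 7.46 against 5.39 at room temperature (2.08, adjusted p = 4.42e-06). Where that probe lies relative to the deleted part of the gene was not determined, so the groups are called arrays labelled knockout below, and every knockout direction rests on those labels. Adipocyte markers were lower on the same arrays, 5 of 8 in the cold and 6 of 8 at room temperature.

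Macrophages are phagocytes that reside in every tissue, adipose tissue included, where they clear dying cells, take up lipid and respond to microbial products. Their survival depends on signalling through the receptor that Csf1r encodes. Several markers are surface receptors with distinct tasks: Adgre1 encodes the F4/80 antigen used to sort mouse macrophages, Itgam the alpha M chain of an integrin (CD11b) shared with neutrophils and monocytes, Cd14 the co-receptor that hands bacterial lipopolysaccharide to Tlr4, Mrc1 the mannose receptor CD206 and Cd163 the scavenger receptor for haemoglobin bound to haptoglobin. Lyz2 (a lysozyme) and Mpeg1 (a pore-forming protein) encode antimicrobial effectors. Gpnmb encodes a transmembrane glycoprotein of melanosomes and lysosomes that lipid-laden macrophages, osteoclasts and melanocytes carry. In bulk RNA such as this, more cells of a type and more RNA per cell cannot be told apart.

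Promoter sequence from RefSeq (GRCm38.p6), the 250 bases upstream of the annotated start, was at hand for 6 of the genes. The following 4 are shown, 3 from genes that varied together over the mouse arrays (Lyz2, Mrc1, Mpeg1) and 1 from Gpnmb, which was higher in Pparg knockdown cells and too dim on some mouse arrays to be compared with them. Each reads 5′ to 3′ on the strand of its gene, and capitals mark matches to TTNNGNAA, a loose form of the site bound by C/EBP factors, found on either strand.
Lyz2, chr10:117282273-117282522 (- strand): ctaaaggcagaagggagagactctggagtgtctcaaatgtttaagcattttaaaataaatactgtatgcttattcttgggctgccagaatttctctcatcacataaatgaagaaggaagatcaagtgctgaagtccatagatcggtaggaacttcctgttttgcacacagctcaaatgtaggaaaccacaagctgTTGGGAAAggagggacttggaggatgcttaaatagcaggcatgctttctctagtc
Mrc1, chr2:14229164-14229413 (+ strand): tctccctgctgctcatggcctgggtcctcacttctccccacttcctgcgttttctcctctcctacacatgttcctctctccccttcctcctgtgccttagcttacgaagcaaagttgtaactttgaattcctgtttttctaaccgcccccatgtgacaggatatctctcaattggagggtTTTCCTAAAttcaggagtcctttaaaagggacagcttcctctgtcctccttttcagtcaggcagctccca
Mpeg1, chr19:12460520-12460769 (+ strand): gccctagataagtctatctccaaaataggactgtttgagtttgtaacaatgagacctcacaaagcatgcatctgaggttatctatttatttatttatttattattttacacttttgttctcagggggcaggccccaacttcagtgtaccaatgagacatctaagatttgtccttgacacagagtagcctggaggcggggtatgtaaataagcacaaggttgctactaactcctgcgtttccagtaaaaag
Gpnmb, chr6:49036268-49036517 (+ strand): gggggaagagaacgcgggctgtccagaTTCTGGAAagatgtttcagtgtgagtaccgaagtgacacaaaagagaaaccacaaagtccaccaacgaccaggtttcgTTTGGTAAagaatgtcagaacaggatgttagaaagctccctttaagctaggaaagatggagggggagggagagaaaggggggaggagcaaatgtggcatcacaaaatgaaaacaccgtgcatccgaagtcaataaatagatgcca
The TTNNGNAA letters were present in the windows of Lyz2, Mrc1, Gpnmb, Itgam and Cd163, 5 of 6, and in 36.8% of all 32851 promoter windows of the same length. Mpeg1 had no match. None of the 6 windows held GAGGAAGT (a core bound by PU.1, present in 2.44% of all windows), TGANTCA (AP-1, 6.75%), the E boxes TCACGTG (3.13%) or TCATGTG (3.25%), or an exact direct repeat with 1 spacer base, the DR1 element bound by Pparg with its partner Rxra (0.0335%). Both strands were searched, and the 2 E-box patterns do not share matches. These are matches of letters only, and a window without a match says nothing about the factor.

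The marker genes fell into 3 patterns over the 8 groups. Lyz2 and Mrc1 were well above background on all 16 mouse arrays and on none of the 16 culture arrays. Mrc1 averaged 1.21 ± 0.46 (SD, n = 4 here and below) on arrays labelled knockout in the cold, 0.11 ± 0.17 on their controls, 0.65 ± 0.29 on arrays labelled knockout at room temperature and 0.16 ± 0.48 on their controls, and lay between -7.66 and -6.09 in culture. Lyz2 averaged 1.05 ± 0.45, 0.01 ± 0.32, -0.39 ± 0.42 and -0.76 ± 0.69 in the same 4 mouse groups, with culture arrays between -7.21 and -5.23. Cd163 was dim everywhere. It was well above background on 14 of 32 arrays, all from mice, where its group means lay between -4.47 and -3.07.

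By the brightest probe of each gene, a second set was measured in culture as well but at much lower levels than in mice. Csf1r averaged 4.37 ± 0.35 on arrays labelled knockout in the cold, 3.56 ± 0.15 on their controls, 3.01 ± 0.17 on arrays labelled knockout at room temperature and 2.75 ± 0.28 on their controls, whereas the 4 culture means lay between -0.75 and -0.17. The 2 room-temperature groups overlapped, and each step above them did not. Mpeg1 had mouse group means between 0.21 and 1.45 and culture means between -4.89 and -3.63, and Adgre1 had mouse means between -1.74 and -0.40 and culture means between -5.16 and -4.19, with 3 of 4 arrays well above background in each culture group. Other probes did not all detect these genes in culture. The second probes of Adgre1 and Mpeg1 were well above background on no culture array. Another Csf1r probe was so on 1 Pparg knockdown array and on no other culture array. Cd14 was well above background on all 32 arrays. Its means were 1.92 ± 0.28 on arrays labelled knockout in the cold, 1.70 ± 0.20 on those at room temperature, 0.81 ± 0.29 on cold controls, -0.21 ± 0.22 on room-temperature controls, -1.08 ± 0.28 in Pparg knockdown cells, -2.17 ± 0.11 in Gyk knockdown cells, -2.26 ± 0.16 in Pparg control cells and -2.58 ± 0.08 in Gyk control cells. The first pair in that order overlapped, as did Gyk knockdown with Pparg control cells, and every other neighbouring pair was separate.

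Gpnmb and the brightest Itgam probe had orders of their own. Gpnmb was highest in Pparg knockdown cells (-0.52 ± 0.06), followed by Pparg control cells (-2.08 ± 0.06) without overlap, and then by the other 6 groups, whose neighbours all overlapped between means of -2.49 and -4.25. Itgam averaged 3.90 ± 0.04 on arrays labelled knockout at room temperature and 4.06 ± 0.20 on their controls, against means between 0.12 and 1.11 in all 6 other groups, culture included.

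**Figure D1:**
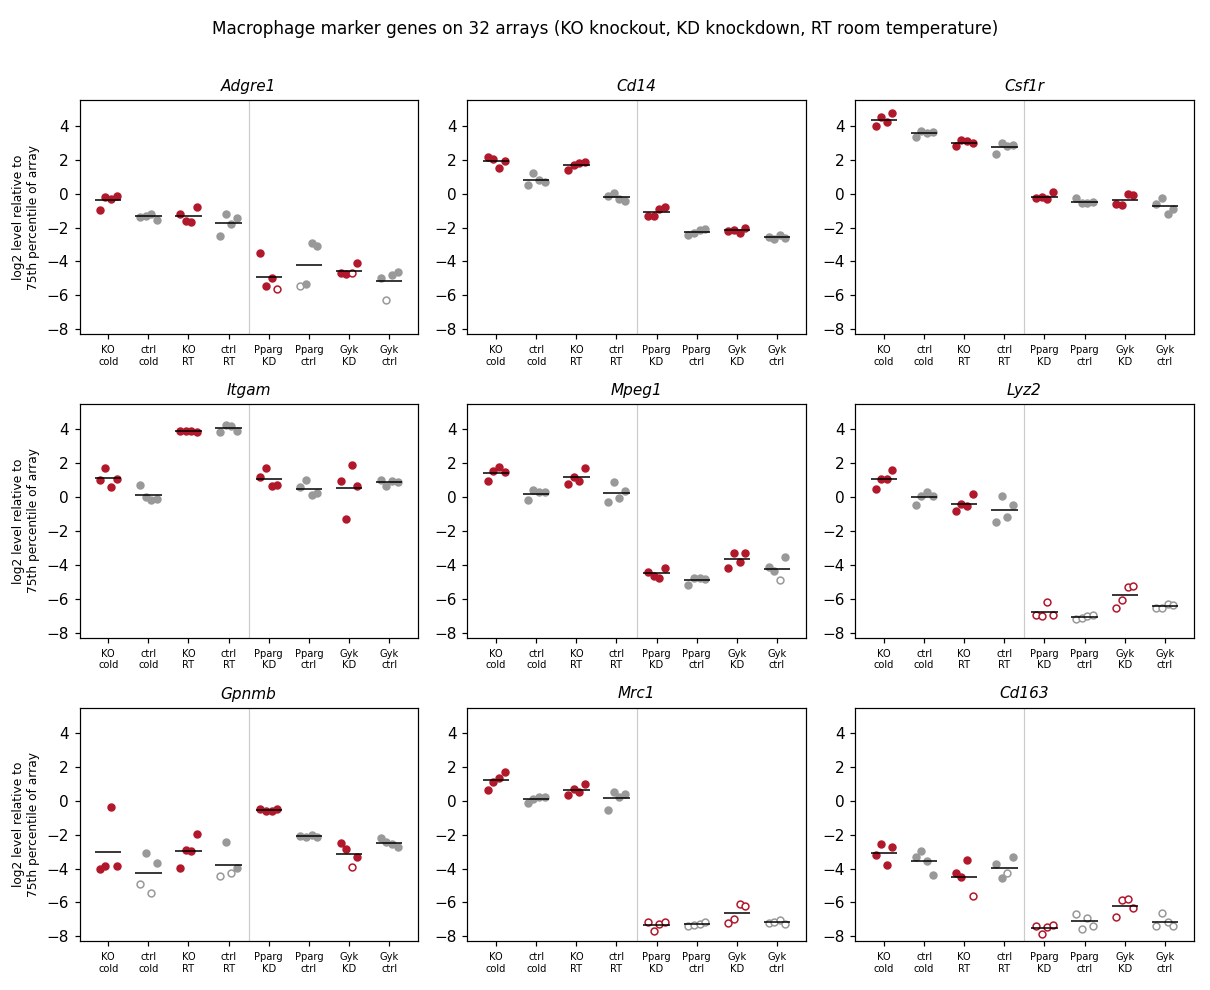
Level of each of the 9 marker genes (log2 intensity relative to the 75th percentile of the array, vertical axis) on every array of the 8 groups (horizontal axis), with open points for arrays where the probe was not well above background and lines at group means. Lyz2 and Mrc1 are well above background on every mouse array and on no culture array, Gpnmb is highest in Pparg knockdown cells, and the brightest Itgam probe is highest in the 2 mouse groups at room temperature.

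In the cold, 7 of the 9 measured marker genes were higher on the arrays labelled Pparg knockout than on their controls, and none was lower. Among all 12982 genes tested, 32% changed, 13.7% being higher and 18.3% lower. The 9 genes had a median log2 difference of 1.04, beside -0.05 for all genes. The differences of the 7 genes lay close together, between 0.80 and 1.24, or 1.74-fold to 2.36-fold. They included receptors (Csf1r, Adgre1, Itgam, Cd14, Mrc1) and effectors (Mpeg1, Lyz2).

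Csf1r, the growth factor receptor, stood at 3.97, 4.53, 4.20 and 4.76 on the 4 arrays labelled knockout, against 3.35, 3.67, 3.59 and 3.64 on the controls. The groups did not overlap, and the log2 difference was 0.80 (SE 0.18, limma adjusted p = 0.0115). Adgre1 stood at -0.96, -0.20, -0.34 and -0.11 against -1.36, -1.30, -1.19 and -1.54 on the controls. Array 1 of those labelled knockout was the nearest to the controls, and no array overlapped (difference 0.94, SE 0.19, adjusted p = 0.00749). Cd14, the lipopolysaccharide co-receptor, stood at 2.18, 2.04, 1.53 and 1.94 against 0.53, 1.21, 0.81 and 0.68 on the controls. These groups were also separate (1.11, SE 0.19, adjusted p = 0.00377). Mrc1 stood at 0.64, 1.12, 1.36 and 1.73 against -0.13, 0.11, 0.24 and 0.22 on the controls, again without overlap (1.10, SE 0.22, adjusted p = 0.00699).

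Of the effectors, Mpeg1 had the largest called difference of the 9 genes. It stood at 0.98, 1.53, 1.80 and 1.49 on arrays labelled knockout, against -0.18, 0.40, 0.33 and 0.29 on the controls (1.24, SE 0.20, adjusted p = 0.00292, no overlap). Lyz2, the lysozyme, stood at 0.50, 1.05, 1.05 and 1.60 against -0.45, 0.09, 0.30 and 0.07 on the controls (1.04, SE 0.24, adjusted p = 0.0127, no overlap). Itgam was the least certain of the 7 calls. Its brightest probe stood at 1.03, 1.70, 0.60 and 1.10 against 0.75, 0.02, -0.18 and -0.12 on the controls, so control array 1 lay above the lowest array labelled knockout (0.99, SE 0.27, adjusted p = 0.0243). The adjusted p lay between 0.0522 and 0.0616 when control array 3, control array 4, knockout array 2 or knockout array 4 was left out, and was 0.0505 in a fit over all 32 arrays.

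The remaining 2 genes did not pass the test. Gpnmb stood at -4.01, -3.82, -0.39 and -3.85 on arrays labelled knockout against -4.88, -3.05, -5.44 and -3.65 on the controls, of which 2 were well above background. Array 3 of those labelled knockout carried the mean: the difference of 1.23 (95% interval -0.71 to 3.17, adjusted p = 0.304) was 0.36 without it, and it was 0.04 on the slide without that array and 2.42 on the other. Cd163 stood at -3.20, -2.55, -3.80 and -2.72 against -3.31, -2.94, -3.56 and -4.38 on the controls (0.48, adjusted p = 0.334).

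Each slide of the cold experiment held a pair of arrays from both groups, and the 7 called differences had the same sign on both slides. On one slide and the other they were 0.74 and 0.86 for Csf1r, 0.75 and 1.14 for Adgre1, 1.24 and 0.98 for Cd14, 0.88 and 1.31 for Mrc1, 1.15 and 1.34 for Mpeg1, 0.96 and 1.13 for Lyz2, and 0.98 and 1.0 for Itgam. Where the groups did not overlap, the same sign on both slides was bound to follow, so it adds nothing there. Second probes gave a more mixed account. The second probe of Adgre1 was also higher (1.12, adjusted p = 0.0127), and so was the second of Itgam (0.83, adjusted p = 0.0279). The other probes of Csf1r gave 0.66 (adjusted p = 0.0626) and 0.60 (adjusted p = 0.101), and the dimmest of Itgam gave -0.24 (adjusted p = 0.752). The second probe of Mpeg1 was well above background on 2 of the arrays labelled knockout and on none of the controls, and its signal was at least 1.60-fold higher. Csf1r gave 0.61 under normexp background correction (adjusted p = 0.128), and Adgre1 had an adjusted p of 0.147 in the fit over all 32 arrays.

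**Figure D2:**
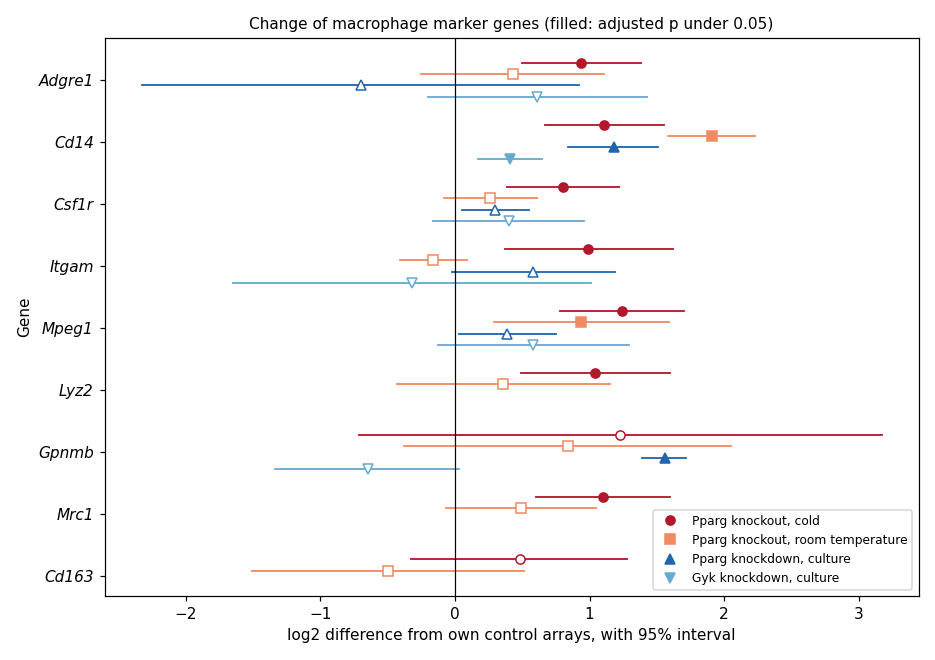
Log2 difference of each marker gene (horizontal axis; points, with bars for the 95% interval) in the knockout-minus-control comparisons in the cold and at room temperature and the knockdown-minus-control comparisons of Pparg and Gyk, filled where the adjusted p was under 0.05. In the cold 7 genes lie between 0.80 and 1.24, whereas at room temperature Cd14 stands apart at 1.91.

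Lists of other genes known from macrophages were counted in the same comparison. In a list of 20 pan-macrophage and myeloid genes, 16 were higher on the arrays labelled knockout and none was lower, with a median of 0.95. The largest were Aif1 (1.46), which encodes the macrophage protein IBA1, Cd84 (1.35), Cd52 (1.14) and Tyrobp (1.12), the adaptor of several myeloid receptors. The summed linear level of the list was 32.2 to 59.7 on arrays labelled knockout against 21.7 to 26.2 on the controls. Among 13 tested genes of resident or alternatively activated macrophages, 9 were higher, with a median of 0.91, led by Chil3 (3.56), a chitinase-like protein, Ccl8 (1.36), Folr2 (1.09) and F13a1 (1.04). A list of lipid-associated macrophage and lysosomal genes split, with 3 higher and 3 lower of 16 tested. Lgals3 (1.75) and the lipid receptor Trem2 (1.51) were higher there, and Abcg1 (-0.99), a cholesterol exporter, and Lipa (-0.91), the lysosomal lipase, were lower.

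The genes on either side of these receptors also changed in part. Of 17 tested growth factors and transcription factors, 5 were higher and 2 lower: Runx1 (1.69), Csf1 (1.65), the ligand of the Csf1r product, and Irf8 (1.30) were higher, and Cebpa (-1.61) was lower. In the inflammatory and endotoxin-sensing list 5 of 11 were higher, led by Ccl4 (1.86), Tlr2 (1.40), Ccl2 (1.05) and Cd86 (0.96). Of 5 tested integrin partners and ligands, Itgb2 (0.66), which encodes the beta chain that pairs with alpha M, and C3 (0.51) were higher. In the haemoglobin clearance list, to which the task of the Cd163 product belongs, 3 of 8 were higher: Lrp1 (1.39), Slc40a1 (1.24) and Slc11a1 (0.80).

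Markers of other cell types moved on the same arrays, and their part in these differences was not tested. Of 13 preadipocyte and fibroblast markers, all measured in both groups, 8 were higher and none lower, with a summed level of 201 to 287 on arrays labelled knockout against 125 to 168 on the controls. In a neutrophil list, S100a8 (1.86) and S100a9 (1.87) were higher, 2 of 5 tested, while the summed level was 35.6 to 48.8 against 39.5 to 45.1 on the controls and Ltf, Mmp8, Mpo and Ngp were not well above background on any of these arrays. The summed level of 5 skeletal muscle markers was 8.32, 8.47, 7.5 and 29.7 on arrays labelled knockout against 166, 206, 17 and 22.3 on the controls. Without control arrays 1 and 2, an alternative chosen after these values were seen, 5 of the 7 marker calls passed, with Adgre1 at 0.96, Cd14 at 1.17, Itgam at 1.26, Mpeg1 at 1.14 and Mrc1 at 0.98. Csf1r then gave 0.75 (adjusted p = 0.0523) and Lyz2 0.86 (adjusted p = 0.0624).

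At room temperature, 2 of the 9 marker genes, Cd14 and Mpeg1, were higher on the arrays labelled Pparg knockout than on their controls, and none was lower. Of all 13232 genes tested, 44.6% changed, 19.6% being higher and 25% lower, so the share of markers that were higher is near that of all genes. The 9 genes had a median log2 difference of 0.43, beside -0.05 for all genes. Cd14 gave the largest knockout difference of any marker at either temperature.

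Cd14 stood at 1.41, 1.71, 1.78 and 1.88 on arrays labelled knockout, against -0.11, 0.05, -0.34 and -0.43 on the controls. The groups were far apart, by 1.91 (SE 0.14, limma adjusted p = 3.42e-05) or 3.75-fold, with 1.94 and 1.87 within the slides. Mpeg1 stood at 0.78, 1.21, 0.98 and 1.71 against -0.29, 0.89, -0.05 and 0.39 on the controls. Control array 2 lay among the arrays labelled knockout, and the difference of 0.94 (SE 0.28, adjusted p = 0.0272) had an adjusted p between 0.0586 and 0.0670 when control array 1, control array 3, knockout array 2 or knockout array 4 was left out. The second Mpeg1 probe gave 0.86 (adjusted p = 0.0470).

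The other receptors overlapped between the groups. Csf1r stood at 2.79, 3.17, 3.11 and 2.99 on arrays labelled knockout against 2.35, 2.99, 2.80 and 2.87 on the controls (0.26, adjusted p = 0.190), and its second probe was lower by a call of its own (-0.43, adjusted p = 0.0190). Adgre1 gave 0.43 (adjusted p = 0.271), Mrc1 0.49 (adjusted p = 0.137) and Lyz2 0.36 (adjusted p = 0.421). The 95% intervals of these 3 reached from slightly below 0 to about the size seen in the cold: -0.25 to 1.11 for Adgre1, -0.07 to 1.05 for Mrc1 and -0.43 to 1.15 for Lyz2. The brightest Itgam probe was tightly grouped, at 3.92, 3.92, 3.93 and 3.84 against 3.86, 4.25, 4.23 and 3.91 on the controls (-0.16, interval -0.41 to 0.09, adjusted p = 0.256). The second Itgam probe averaged -2.88 against -3.08 on the controls, and the dimmest -4.58 against -4.7. The second Adgre1 probe averaged -0.29 against -0.88 on the controls, and the remaining Csf1r probe -1.88 against -1.96. Gpnmb gave 0.84 (adjusted p = 0.231) with 2 of 4 controls well above background, and Cd163 gave -0.50 (adjusted p = 0.384) with 3 of 4 arrays well above background in either group.

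The lists of related genes were counted in the same way at room temperature. In the pan-macrophage list 2 of 20 were higher, Cd52 (1.11) and Aif1 (0.95), and Lst1 (-0.39) was lower, with a median of 0.52. The summed level was 26.5 to 48.6 on arrays labelled knockout against 16.9 to 29.8 on the controls. Of 12 tested resident or alternatively activated genes, Chil3 (3.73), Retnla (0.86) and Cd209f (0.65) were higher. In the inflammatory list 5 of 13 were higher, among them Tlr4 (0.95), the receptor that the Cd14 product serves, and its adaptor Myd88 (0.91), with Il1rn (0.90) and Cd86 (0.82). Of 16 growth and transcription factors 4 were higher and 3 lower, with Runx1 at 1.94, Irf8 at 1.0, Maf at 0.82 and Nr1h3, the oxysterol receptor gene, at -0.74. The lipid-associated and lysosomal list had 4 higher and 4 lower of 16, with Plin2 (1.14), Apoe (1.13) and Abca1 (1.02) higher and Lipa (-1.39) lower. The integrin list had C3 (1.24) higher and Icam2 (-0.67) lower, and the haemoglobin clearance list had Slc11a1 (1.42), Lrp1 (1.34) and Slc48a1 (0.34) higher.

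Markers of other cell types also moved at room temperature, and their part was not tested. Of 6 endothelial markers, all measured, 5 were lower, with a summed level of 13.5 to 16.0 on arrays labelled knockout against 18 to 24.5 on the controls. Of 6 tested T and NK cell genes 1 was higher and 2 were lower, with summed levels of 3.97 to 4.47 against 5.39 to 6.91 on the controls and Cd3g, Cd8a and Klrb1c not well above background. Of the 13 preadipocyte and fibroblast markers 1 was higher and 1 lower. Of 5 tested neutrophil genes S100a8 (1.28) was higher, with summed levels of 77.7 to 97.7 on arrays labelled knockout against 85.3 to 108 on the controls. The arrays labelled knockout were also brighter, with 75th percentiles of 498.5 to 603.7 intensity units against 292.7 to 406.2 on the controls.

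**Figure D3:**
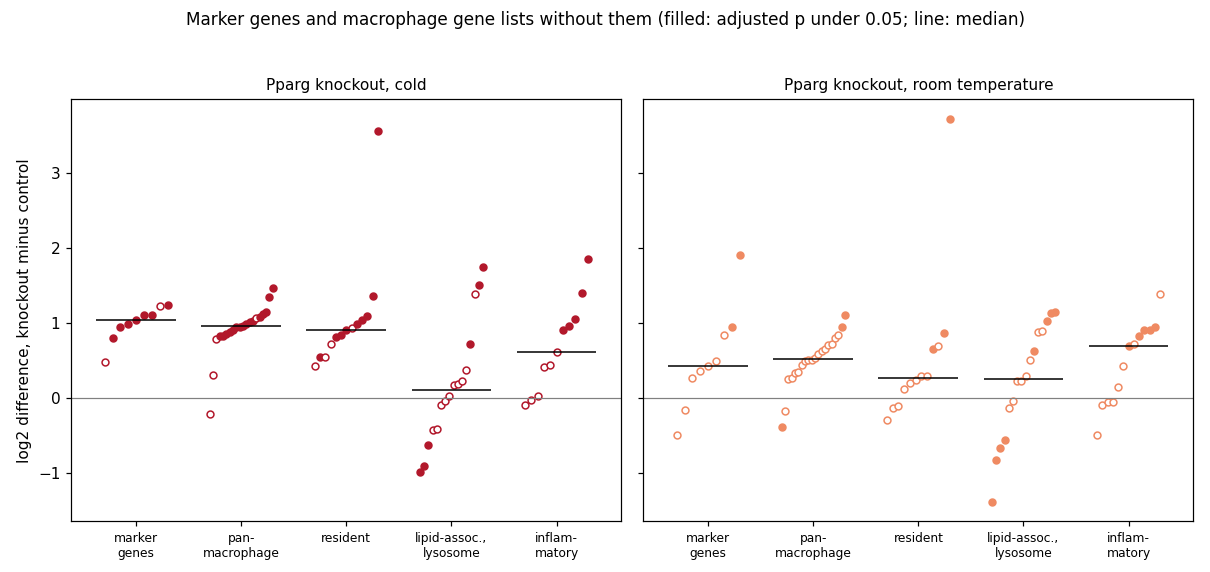
Log2 difference, arrays labelled knockout minus control, of the marker genes and of genes in 4 macrophage lists without them (vertical axis), in the cold and at room temperature, each point being 1 gene and each line a median. The medians of the pan-macrophage list are 0.95 in the cold and 0.52 at room temperature.

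The knockout differences at the 2 temperatures were then set against each other in 1 fit over the 16 mouse arrays. For 2 of the 9 genes the difference itself passed the test, beside 13.4% of all 14065 genes. The contrast, cold minus room temperature, was called and positive in 6.11% of all genes and called and negative in 7.24%. Its sign alone does not say whether a knockout difference was larger or smaller in size. The knockout difference of Cd14 was smaller in the cold than at room temperature (-0.79, SE 0.25, adjusted p = 0.0472), with cold controls already higher than room-temperature controls. By its brightest probe, that of Itgam was larger in the cold (1.15, SE 0.31, adjusted p = 0.0270). Its other probes did not both go the same way. Within the slides, the second gave 0.43 and 1.22 in the cold and 0.16 and 0.24 at room temperature. The dimmest gave 0.19 and -0.66 in the cold and 0.07 and 0.19 at room temperature. For the genes called only in the cold, the contrast did not pass: 0.51 for Adgre1, 0.54 for Csf1r (adjusted p = 0.156), 0.68 for Lyz2 and 0.61 for Mrc1, and Mpeg1 gave 0.30. Gpnmb gave 0.40 and Cd163 0.98, neither of them called. The second Csf1r probe did pass (1.09, adjusted p = 0.0228). Of 20 pan-macrophage genes none passed, and of 14 resident or alternatively activated genes Stab1 (1.14) and Mgl2 (0.67) did. Markers of other cell types passed as well, and their part was not tested. The contrast was called and positive for 6 of 13 preadipocyte and fibroblast genes (median 0.8) and 3 of 6 endothelial genes (median 0.77). It was called and negative for none of either. Both calls among the markers were fragile. When 1 array was left out the adjusted p lay between 0.0327 and 0.095 for Cd14, and between 0.00702 and 0.054 for Itgam, where room-temperature control arrays 2 or 3 or cold control arrays 3 or 4 ended the call. Itgam also had an adjusted p of 0.181 with all 32 arrays in the fit and of 0.0825 under normexp. Without cold control arrays 1 and 2 Cd14 gave -0.73 (adjusted p = 0.058).

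Cold was compared with room temperature within each genotype. The arrays of the 2 temperatures lay on different slides scanned on different days, so temperature, slide and scan day cannot be told apart. By their brightest probes, in controls, Cd14, Csf1r and Lyz2 were higher in the cold and Itgam was lower, 4 of 9 genes, beside 66.7% of all 14065 genes (41.6% higher, 25.1% lower). On arrays labelled knockout, Adgre1, Csf1r, Lyz2 and Cd163 were higher and Itgam lower, 5 of 9, beside 65.5% (40.9% higher, 24.6% lower). The median of all genes was itself 0.23 in both comparisons, and between 0.15 and 0.34 under other scalings.

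The brightest Csf1r probe was higher in the cold by 1.35 on arrays labelled knockout (limma adjusted p = 7.69e-06) and by 0.81 on controls (adjusted p = 0.000781). Lyz2 was higher by 1.44 on arrays labelled knockout (adjusted p = 0.00110) and by 0.76 on controls (adjusted p = 0.0476), the weakest of these calls: its adjusted p reached 0.159 when 1 array was left out and 0.087 under the other alternatives. The brightest Adgre1 probe (0.90, adjusted p = 0.00799, and 0.109 in the fit over all 32 arrays) and Cd163 (1.41, adjusted p = 0.0103) were called on arrays labelled knockout, and Cd14 (1.02, adjusted p = 0.000123) on controls. Mrc1 gave 0.56 on arrays labelled knockout (adjusted p = 0.0599) and -0.05 on controls, and Gpnmb gave -0.08 and -0.48, none of them called. Nor were Mpeg1 (0.28) and Cd14 (0.22) on arrays labelled knockout or Cd163 (0.43) on controls. The largest value belonged to the brightest Itgam probe, which was lower in the cold by 2.79 on arrays labelled knockout (-2.79, adjusted p = 5.96e-08) and by 3.95 on controls (-3.95, adjusted p = 1.65e-09). These comparisons share arrays with the knockout comparisons above.

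Markers of other cell types differed across temperature too, and their part was not tested. On arrays labelled knockout 9 of 13 preadipocyte and fibroblast markers were higher in the cold, with summed levels of 201 to 287 in the cold against 97.6 to 130 at room temperature, and in controls 4 were higher and 4 lower. In controls 4 of 5 skeletal muscle markers were higher, with summed levels of 17 to 206 in the cold against 10.4 to 12.9 at room temperature, where Ckm and Myh4 were not well above background, and on arrays labelled knockout none of 5 was called (7.5 to 29.7 against 4.4 to 30.7). The summed level of the dendritic cell list was 17.7 to 20.9 in cold controls against 103 to 148 at room temperature. There 2 genes were higher and 1 lower of 6 tested, with a median log2 difference of 0.03, and Xcr1 was not well above background. The summed level of the neutrophil list was 39.5 to 45.1 in cold controls against 85.3 to 108, with 1 higher and 2 lower of 5 and a median of 0. Sums are weighted to the brightest genes, so neither fall is that of its list as a whole. Of 20 pan-macrophage genes, 8 were higher and 1 lower on arrays labelled knockout, beside 40.9% and 24.6% of all genes. In controls 4 were higher and 2 lower, beside 41.6% and 25.1%. Of 19 lipid-associated and lysosomal genes, 1 was higher and 7 lower on arrays labelled knockout, and 2 were higher and 8 lower in controls. Of 14 resident or alternatively activated genes, 7 were higher and none lower on arrays labelled knockout, and 5 were higher and 2 lower in controls. Of 13 inflammatory genes, 4 were higher and 2 lower, and in controls 4 and 3.

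The probes of a gene disagreed across temperature more than across genotype. The second Itgam probe gave 0.49 on arrays labelled knockout (adjusted p = 0.0518) and -0.14 on controls, and the dimmest gave 1.89 (adjusted p = 0.00551) and 2.25 (adjusted p = 0.00156), both higher in the cold where the brightest probe was lower. In controls the brightest Csf1r probe was higher in the cold, its second was lower (-0.86, adjusted p = 0.00131), and its remaining probe was higher (1.25, adjusted p = 0.000259). The brightest Mpeg1 probe gave -0.02 in controls, while its second was at least 2.06-fold lower. The second Adgre1 probe gave 0.12 on arrays labelled knockout and -0.40 on controls, where the brightest gave 0.90 and 0.39. The values of Itgam, Csf1r, Mpeg1 and Adgre1 across temperature are therefore those of single probes, and no direction is given for these genes as such. The reason for the disagreement was not tested, and the files do not say which transcripts each probe binds.

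**Figure D4:**
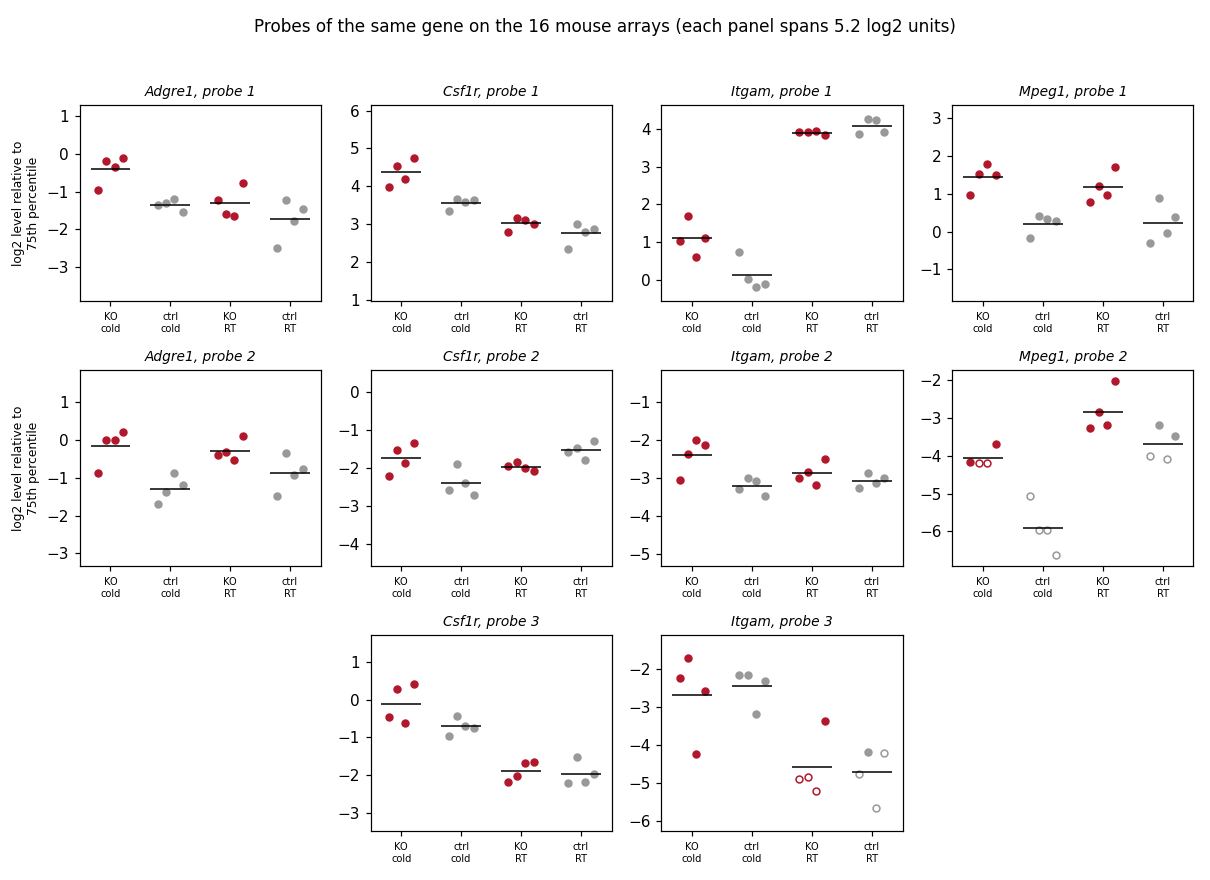
Level of every probe of Adgre1, Csf1r, Itgam and Mpeg1 (log2 intensity relative to the 75th percentile of the array, vertical axis) on the 16 mouse arrays in 4 groups (horizontal axis), with lines at group means. The brightest Itgam probe has group means of 3.90 and 4.06 at room temperature and of 1.11 and 0.12 in the cold, while the other Itgam probes do not follow it.

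In cultured cells, Pparg knockdown was accompanied by higher Cd14 and Gpnmb. These were 2 of the 6 marker genes bright enough to test, beside 34.1% of all 12843 genes, 18.1% being higher and 16% lower. The 6 had a median log2 difference of 0.48, beside 0.03 for all genes. Lyz2, Mrc1 and Cd163 were not well above background on any of these 8 arrays and were not tested.

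Gpnmb stood at -0.47, -0.57, -0.58 and -0.47 in Pparg knockdown cells, against -2.05, -2.12, -2.01 and -2.13 in control cells. The spread within either group was a small fraction of the gap of 1.56 (SE 0.07, limma adjusted p = 1.49e-06), or 2.94-fold, and the slides gave 1.56 and 1.55. In a fit over all 32 arrays, which borrows the wider spread of Gpnmb in mice, its adjusted p was 0.0702. Cd14 stood at -1.33, -1.30, -0.91 and -0.79 in Pparg knockdown cells, against -2.46, -2.31, -2.17 and -2.09 in control cells. It was 2.26-fold higher without overlap (1.18, SE 0.15, adjusted p = 0.000388), with 1.07 and 1.28 within the slides. Under a different background correction, normexp, Cd14 gave 0.63 with an adjusted p of 0.0715.

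Csf1r stood at -0.25, -0.20, -0.31 and 0.07 in Pparg knockdown cells against -0.28, -0.57, -0.55 and -0.50 in control cells (0.30, adjusted p = 0.0638). The brightest Itgam probe gave 0.58 (adjusted p = 0.127) and Mpeg1 0.39 (adjusted p = 0.0897). The other Itgam probes gave 0.04 (adjusted p = 0.956) and 0.43 (adjusted p = 0.107), and the second Csf1r probe gave 0.07 (adjusted p = 0.848). The remaining probes of these genes were too dim to test. In this experiment same-numbered arrays deviated together, as did some arrays of other numbers, and the values above come from an unpaired fit. With the replicate number as a block 4 of the 6 genes were called by their brightest probes, Itgam (adjusted p = 0.000382) and Csf1r (adjusted p = 0.0358) in addition. Adgre1 was erratic near the background. It stood at -3.48, -5.46, -5.00 and -5.65 in Pparg knockdown cells against -5.45, -5.31, -2.94 and -3.08 in control cells (-0.70, adjusted p = 0.502), and its slides gave 0.91 and -2.32.

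Few genes that macrophages share could be measured in culture. Of the 20 pan-macrophage genes, 5 were testable and 2 were higher in Pparg knockdown cells: Coro1a, by at least 2.22-fold, and Mertk (0.58), a receptor for dying cells. The summed level of that list was between 1.45 and 2.65 over the 16 culture arrays. The inflammatory and endotoxin-sensing list was better represented, and 8 of 11 tested genes were higher and none lower, with a median of 0.73. They included Il6 (2.38), Il1rn (2.07), Tlr2 (2.03) and Lbp (1.10), whose product carries lipopolysaccharide to the Cd14 product. Among 14 growth and transcription factors 7 were higher and 3 lower, with Csf2rb at 2.20, Maf at 1.53, Runx1 at 1.49 and Nr1h3 at -1.28. In the resident and alternatively activated list Ccl8 (1.42) was higher and Clec10a (-3.27), F13a1 (-0.47) and Mgl2 (-0.31) were lower, out of 5. The lipid-associated and lysosomal list had 6 higher and 3 lower of 16, the integrin list C3 (0.73) and Itgb2 (0.61) higher of 4, and the haemoglobin clearance list 4 of 8 higher, Slc11a1 (1.05) and Slc40a1 (0.99) among them.

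Markers of other cells that carry Gpnmb were read beside it, and their part in its difference was not tested. Of 5 melanocyte markers, 3 were tested and Mlana was higher in Pparg knockdown cells (1.60 against -2.19 in control cells, a difference of 3.79). Mlana was the only one called, and the tested genes had a median log2 difference of 0.26. The list's summed level, which is weighted to its brightest genes, was 2.84 to 3.78 in Pparg knockdown cells against 0.473 to 0.564 in control cells. Dct and Tyrp1 were not well above background on any culture array. Of 6 osteoclast markers, 4 were tested, with Ctsk higher (1.08) and Acp5 lower (-1.51), and Calcr and Dcstamp were not well above background. Their summed level was 12.2 to 14.6 in Pparg knockdown cells against 31.4 to 38.9 in control cells. Preadipocyte and fibroblast markers were higher in 7 of 11 tested, with summed levels of 36.4 to 38.2 against 22.2 to 24.3 in control cells and Dpp4 and Lum not well above background.

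Gyk knockdown cells differed from their controls in 1 of 6 testable marker genes, Cd14, beside 8.76% of all 12218 genes, 4.65% being higher and 4.11% lower. Cd14 stood at -2.21, -2.13, -2.30 and -2.05 in Gyk knockdown cells, against -2.58, -2.65, -2.47 and -2.62 in control cells. The groups were separate, and the difference was small (0.41, SE 0.10, 1.33-fold) with an adjusted p of 0.0485. That call did not survive most other settings, and no marker was called under 14 of 18 alternatives. Gpnmb stood at -2.47, -2.83, -3.93 and -3.32 in Gyk knockdown cells against -2.22, -2.44, -2.54 and -2.75 in control cells (-0.65, adjusted p = 0.206). Csf1r gave 0.40 (adjusted p = 0.326), Mpeg1 0.58 (adjusted p = 0.268), Adgre1 0.61 (adjusted p = 0.303) and Itgam -0.32 (adjusted p = 0.754). Of the lists, none of 4 tested pan-macrophage genes and none of 8 inflammatory genes was called, and of 14 growth and transcription factors Klf4 (0.98) and Csf1 (0.91) were higher. Mlana gave -0.54.

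The difference between the knockdown effects was tested directly over the 16 culture arrays. It passed for 2 of 6 genes, beside 12.4% of all 13117 genes (6.29% higher, 6.14% lower). The Pparg knockdown difference exceeded the Gyk knockdown difference by 0.77 for Cd14 (SE 0.18, limma adjusted p = 0.0119) and by 2.21 for Gpnmb (SE 0.32, adjusted p = 0.000291). For Gpnmb the values were 1.56 under Pparg knockdown, which was called, and -0.65 under Gyk knockdown, which was not. With all 32 arrays in the fit Gpnmb had an adjusted p of 0.101, and under normexp Cd14 gave 0.42 with an adjusted p of 0.497. The uncalled genes gave 0.90 for Itgam, -0.10 for Csf1r, -0.19 for Mpeg1 and -1.32 for Adgre1. The knockout difference at room temperature was also set against the Pparg knockdown difference. There 1 of 9 genes passed, beside 28.8% of all 14325 genes (12.4% higher, 16.4% lower): Cd14 differed by more in mice (0.73, SE 0.21, adjusted p = 0.0199). Itgam gave -0.75 (adjusted p = 0.0822). The other 7 gave 1.13 for Adgre1, 0.55 for Mpeg1, 0.52 for Mrc1, 0.06 for Lyz2, -0.04 for Csf1r, -0.11 for Cd163 and -0.72 for Gpnmb, none of them called.

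Cd14 was the 1 marker called in all 4 comparisons of a knockout or knockdown with its control, with log2 differences of 1.11 in the cold, 1.91 at room temperature, 1.18 under Pparg knockdown and 0.41 under Gyk knockdown. The 4 use separate arrays, and the last call was the one lost under most alternatives. In the first 3 of these, 32%, 44.6% and 34.1% of all genes were called, and in the last 8.76%.

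Control mice were finally compared with control cultures, 8 arrays each, which also differ in slide and scan day and cannot be told apart from them. All 9 measured marker genes differed, beside 81.6% of all 14068 genes. Higher in mice were 8, beside 42.2% of all genes, and Gpnmb was lower, beside 39.4%. Mrc1 was at least 42.9-fold higher in mice, Lyz2 at least 30.0-fold and Cd163 at least 2.88-fold, as bounds, because none of them was well above background in culture. These sizes depend on the background correction. Under normexp the log2 differences were 2.83 for Mrc1, 2.22 for Lyz2, 2.59 for Mpeg1, 1.37 for Adgre1, 1.85 for Cd14 and -0.57 for Gpnmb, all still called, and 0.55 for Cd163 (adjusted p = 0.0582), which was not. Mpeg1 was 27.3-fold higher (4.77), Csf1r 13.6-fold (3.77), Adgre1 8.79-fold (3.14) and Cd14 6.59-fold (2.72). Other probes gave at least 18.4-fold for Adgre1 and at least 14.1-fold for Csf1r. The second Csf1r probe averaged -1.54 and -2.4 in room-temperature and cold control mice, against -4.93 and -4.54 in Pparg and Gyk control cultures. The second Mpeg1 probe averaged -3.69 and -5.9 in these mice, against -7 and -6.57 in these cultures. It was well above background on 2 room-temperature arrays and on no other control array. Itgam was 2.64-fold higher with overlapping arrays, since its signal in cold controls was as low as in culture. Gpnmb was lower in mice by a log2 difference of -1.73 (limma adjusted p = 0.000212). In the pan-macrophage list all 18 tested genes were higher in mice, C1qc by at least 112-fold. Of 12 tested resident or alternatively activated genes 11 were higher and 1 lower. Of 17 growth and transcription factors 10 were higher and 3 lower, Csf1 (-3.69) among the lower. The lipid-associated and lysosomal list had 8 higher and 5 lower of 17. The inflammatory list had 6 higher and 7 lower of 15, and the haemoglobin clearance list 2 higher and 5 lower of 8. Markers of other cell types were higher in mice as well, among them 6 of 6 endothelial genes (median 7.21), 5 of 5 tested mast cell genes (4.23), 5 of 5 tested neutrophil genes (1.81) and 8 of 13 preadipocyte and fibroblast genes (3.83), of which 3 were lower. Their part was not tested. All these samples carry the label preadipocytes.

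Within the mouse groups, most markers varied together from array to array. After the mean of each group was subtracted, over 16 arrays, the correlation of each gene with the mean of the other markers was 0.90 for Lyz2, 0.83 for Mrc1, 0.81 for Adgre1, 0.80 for Mpeg1 and 0.77 for Csf1r. Cd14 (0.14) and the brightest Itgam probe (-0.02) did not follow. The second Itgam probe did follow (0.73), as did the second of Adgre1 (0.85) and the remaining one of Csf1r (0.76), and the second of Csf1r did so less (0.48). The closest pairs were Lyz2 with Mpeg1 (0.90) and Lyz2 with Mrc1 (0.89). These are descriptions, since the values share arrays and scaling.

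**Figure D5:**
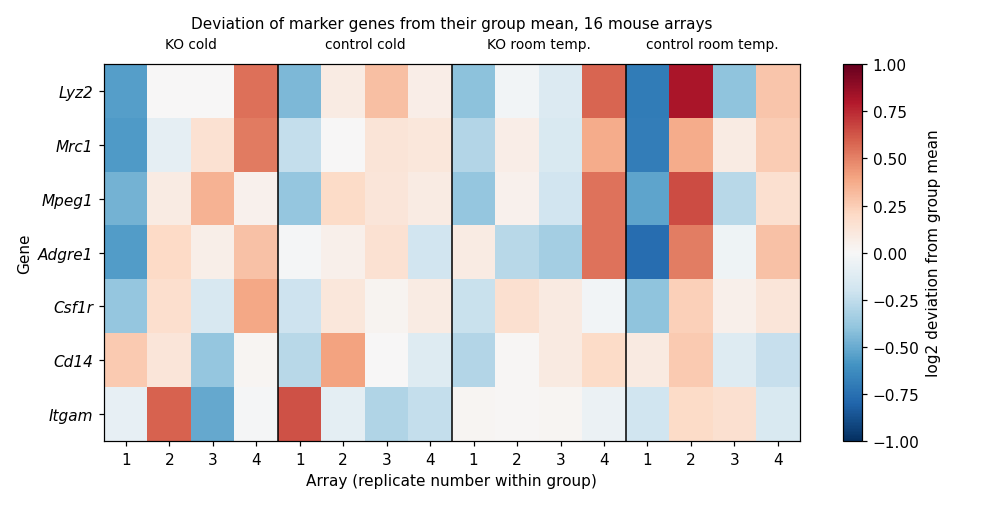
Deviation of 7 marker genes from their group mean (colour, log2 units) on the 16 mouse arrays (columns, in 4 groups), for the genes well above background on all of them. Array 1 of every group is low for most genes, and room-temperature control array 2 is high.

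Individual arrays carried this shared variation. The mean deviation of the 7 markers was -0.34 on array 1 of those labelled knockout and -0.14 on control array 1 in the cold, and -0.21 on array 1 of those labelled knockout and -0.46 on control array 1 at room temperature. Room-temperature control array 2 stood at 0.43 above its group. Among 10992 genes well above background on all 16 arrays, the 8 non-member genes that followed the mean of the 7 markers most closely were Ctsh (r = 0.96), Rgs10 (0.96), C1qc (0.95), Cd48 (0.95), Fcgr3 (0.95), C1qb (0.94), Tgfbi (0.94) and Tyrobp (0.93). C1qb and C1qc encode complement chains, Fcgr3 an antibody receptor and Ctsh a lysosomal protease.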

How the data were processed

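Total RNA (extracted with TRIzol and Cy3-labelled, per the labels) from 32 samples was read on one-colour arrays. The deposited files hold, per the file headers, 1 intensity per spot, linear, from which Agilent Feature Extraction 10.7.3.1 had taken the background and a spatial trend but made no scaling across arrays, with flags for outlying, saturated and dim spots. Other upstream steps are not given in the sources used here. From the deposited intensity, log2 values minus the 75th percentile of each array were computed. Of 44397 spots per array, 1377 control spots and 101 to 247 outlying spots were left out, and spots of 1 probe were averaged. A RefSeq gene table (GRCm38.p6) named 27234 of 39429 probes (69.1%), and the other probes were not used. The files' own grid is of another build (mm9), so coordinates are given for RefSeq promoters alone.

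Each gene was represented by its brightest probe by mean level. Probes that 4 or more arrays of a fit showed well above background were tested in R 4.3.3 using limma 3.58.1 (lmFit, eBayes); p-values were adjusted by Benjamini-Hochberg across the genes of the fit and called under 0.05. Secondary probes carry the adjusted p of a fit in which every probe was tested on its own. Each knockout or knockdown comparison used its own 8 arrays, and comparisons across experiments used the 16 arrays concerned. A probe dim on all arrays of a group has only a bound: at least the fold of the bright group's mean over the higher of the dim signal and the lowest signal well above background. The number of arrays limits the precision.

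The members and lists were chosen with earlier results of these data known. All members with a testable probe are given in every comparison. From each list up to 4 genes are named, those called with the largest absolute difference and well above background on all arrays of at least 1 group, together with genes that interact with a member or complete a count and were chosen after their values were seen (Csf1 against culture, C1qc, Mlana, Ctsk, Acp5, S100a8, S100a9). The 8 genes closest to the markers were ranked by correlation within mouse groups. Alternatives were normexp background correction (offset 50, on median signals), quantile scaling, a percentile over detected probes, no filter, every probe, a fit over all 32 arrays, slide and replicate number as blocks, and each array left out in turn. The main fits used group means and no pairing, and replicate number entered as an alternative only. Pairing was checked by whether the correlation of deviations of same-numbered arrays exceeded 0.1 in all 4 pairs. That held for the Pparg culture experiment (0.703 to 0.767, and up to 0.725 between other numbers). There arrays 1 and 2 of both groups shared a slide, as did arrays 3 and 4, so the slide may enter these correlations.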

Additional observations from a re-analysis of the deposited data

Results flagged for a closer look

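In 3 of 60 sets of 4 arrays tested for an array standing apart from the other 3 (Dixon's test, which chance passes in about 1 of 20 sets), 1 array did so. Gpnmb stood at -0.39 on array 3 of those labelled knockout in the cold, against -4.01 to -3.82 on the other 3. Adgre1 stood at -4.1 on array 4 of the Gyk knockdown cells, against -4.77 to -4.67 on the others, and this array is among the dimmest of the study. Itgam stood at 3.84 on array 4 of those labelled knockout at room temperature, against 3.92 to 3.93 on the others, a gap that is small beside any difference between groups.

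In 5 cases a test found that the difference of a marker between labelled knockout or knockdown and control arrays was unequal between settings. The knockout difference in the cold minus that at room temperature was -0.79 for Cd14 and 1.15 for the brightest Itgam probe, which the dimmest Itgam probe did not follow. The Pparg knockdown difference minus the Gyk knockdown difference was 0.77 for Cd14 and 2.21 for Gpnmb. The knockout difference at room temperature minus the Pparg knockdown difference was 0.73 for Cd14.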

How the results depend on the processing

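Of 1792 marker values recomputed under the alternatives, 1702 kept their side of the threshold, 73 lost it, 17 passed it and 0 changed sign after being called. The counts of called markers that moved by over 1.5 times are given here, and the cause was not tested. For Pparg knockdown (2 called) the count was 1 under normexp and in the fit over all 32 arrays, and 4 with the percentile over detected probes, the slide as a fixed block or the replicate block. For Gyk knockdown (1 called) it was 0 under normexp, quantile scaling, the percentile over detected probes, no filter, every probe on its own, all 32 arrays and the replicate block, and 0 to 1 when 1 array was left out. For the knockout at room temperature (2 called) it was 1 under normexp and 1 to 3 with 1 array left out. For the knockout difference between temperatures (2 called) it was 0 under normexp, 1 under quantile scaling, the percentile over detected probes, no filter, every probe, all 32 arrays, the replicate block and the removal of cold control arrays 1 and 2, and 0 to 2 with 1 array left out. For Pparg against Gyk knockdown (2 called) it was 1 under normexp and with all 32 arrays. For the knockout at room temperature against Pparg knockdown (1 called) it was 2 with the slide or replicate block and 1 to 2 with 1 array left out. For the knockout in the cold (7 called) it lay between 5 and 7, and 6 to 7 with 1 array left out. There, Csf1r gave 0.61 under normexp (adjusted p = 0.128) and Adgre1 had an adjusted p of 0.147 with all 32 arrays. Outside Pparg culture, same-numbered arrays deviated together in 2 of 4 pairs for Gyk, 0 of 4 at room temperature and 2 of 4 in the cold. In the cold these correlations reached 0.499, against at most 0.255 between other numbers. The labels do not say whether same-numbered arrays were paired, and this check cannot decide it. Cd163 and Gpnmb lie near background in mice, which limits what their values can show.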
